A study of Homo sapiens with 2 samples.

Results

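The genes for the proteins of the cytosolic ribosome were compared between 2 Illumina bead arrays of MCF-10A cells, 1 array of cells given a small interfering RNA (siRNA) against SCTR and 1 of cells given a negative control siRNA. Members were the probes of the authors' processed table whose symbol starts with RPL or RPS and a digit or is RPSA, RPLP0, RPLP1 or RPLP2, without RPS6K kinases, RPS27L and symbols with a pseudogene ending. A detection p-value under 0.01 on at least 1 array was required, and all 111 such probes met it. They stand for 71 genes out of 9427 named genes detected under the same rule, with 41 genes of the large subunit, 26 of the small subunit and 4 paralog forms with an L at the end of the symbol. The rule for members used names and detection, not the difference between the arrays. The rule and the lists below were nevertheless set with earlier results of these data known.

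MCF-10A is a non-tumorigenic line of human mammary epithelium, and both groups are this 1 line and differ in the labels by the siRNA alone. SCTR codes for the receptor of the gut hormone secretin, which signals through G proteins. The sources used here do not give the sequence, dose or time of the siRNAs. The processed table names 0 probes as SCTR, so the knockdown itself was not analysed here, and the labels alone say which array is the treated one. Below, a value in the control is that of the array with negative control siRNA, and a value after SCTR siRNA that of the other.

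A ribosome joins a small subunit, which reads the messenger RNA, to a large subunit, which forms the peptide bond. Most of their proteins are needed in equal amounts. Most of the proteins are made from messenger RNAs that begin with a C and a run of pyrimidines, the terminal oligopyrimidine (TOP) tract. The tract lets the cell switch the translation of these messenger RNAs together. In growing cells, cultured mammary epithelium included, these messenger RNAs are among the most abundant.

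The starts of a few genes that the results turn on are shown because many of these genes share the TOP tract, and it stands in genes at both ends of the range of differences. Each line is the annotated start of transcription of RefSeq (GRCh38.p14), with 10 bases before it and 20 bases from it on, 5′ to 3′ on the strand of the gene, and capitals mark the run of pyrimidines that begins with the start base. The first 6 genes had some of the most negative differences, RPLP2 and RPS19 were nearly level, and RPS4X and RPL7L1 have no such run.
RPL12, chr9:127451387-127451416, minus strand: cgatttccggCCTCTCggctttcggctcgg
RPL34, chr4:108620566-108620595, plus strand: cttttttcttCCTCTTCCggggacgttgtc
RPL24, chr3:101686699-101686728, minus strand: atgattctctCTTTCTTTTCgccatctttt
RPL39, chrX:119791611-119791640, minus strand: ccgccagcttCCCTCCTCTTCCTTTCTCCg
RPS9, chr19:54200848-54200877, plus strand: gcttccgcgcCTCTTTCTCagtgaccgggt
RPS3, chr11:75399508-75399537, plus strand: cgagccacttCCTTTCCTTTCagcggagcg
RPLP2, chr11:809957-809986, plus strand: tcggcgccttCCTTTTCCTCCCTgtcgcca
RPS19, chr19:41860245-41860274, plus strand: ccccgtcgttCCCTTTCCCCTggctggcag
RPS4X, chrX:72277229-72277258, minus strand: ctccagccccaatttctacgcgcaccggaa
RPL7L1, chr6:42879606-42879635, plus strand: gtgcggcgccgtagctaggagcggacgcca

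The arrays held signals for 47316 probes, with 15229 (32.2%) detected in the control and 15848 (33.5%) after SCTR siRNA. Median intensity was 122 units in the control and 124 on the other array, and with 1 array per group the number of arrays limits every value here. Of the epithelial markers, LAMB3, KRT8 and EPCAM had detected probes, with LAMB3 (a laminin chain of basal cells) at an intensity of 5094 in the control and 20788 after SCTR siRNA. EPCAM, a surface protein of epithelial cells, read 1648 and 2900.2 units by its brightest probe, and its 3 probes had log2 differences of 0.82, 0.89 and 0.92. KRT8, a luminal keratin, read 1293 and 1385 units, a log2 difference of 0.07. KRT5, KRT14, KRT17, TP63, ITGA6 and KRT18 carry no name in the processed table and were not analysed here. Of 4 mesenchymal markers only COL1A1 was named, with an intensity of 119 in the control, where it was not detected, and 166 after SCTR siRNA, close to the detection limit, and none of 3 blood markers was named. The part of these genes in the results below was not tested.

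Most ribosomal protein genes had a lower level on the SCTR siRNA array than on the control array. Levels are background-corrected, quantile-normalized log2 intensities of the brightest probe of a gene, and each difference is the SCTR siRNA array minus the control array. The brightest probe is the one with the highest mean level over both arrays. This choice uses the SCTR siRNA array too and can pass over a probe that is brighter in the control. The median difference over the 71 genes was -0.56, a level 1.47-fold lower, against -0.08 over all named genes. The quartiles of the members were -0.72 and -0.31, and those of all named genes -0.55 and 0.45. A difference below 0 was seen for 67 of 71 members and for 54.5% of all named genes. By 1.5-fold or more 28 members were lower, where 23.3% of all named genes were, and 1 member was higher, where 20.7% of all named genes were. At the 2-fold limit 12 members were lower and 1 higher, against 9.18% and 10.6% of all named genes. These are counts by size without a replicate check, and fewer cells of a type and less RNA per cell cannot be told apart in such bulk RNA.

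The same pattern stood in the raw intensities, before any correction. Of 111 member probes 102 (91.9%) had a lower raw intensity on the SCTR siRNA array, against 50.2% of the 14949 detected probes of the processed table. The median raw log2 difference was -0.63 for member probes and -0.0022 for all probes. Other bright probes were lower too in raw intensity. At a mean normalized level of 14 and over the raw median was -0.66 for member probes and -0.26 for other probes. From 12 to 14 these medians were -0.74 and -0.12. Member probes held 5.99% of the summed signal of the processed table in the control and 4.15% after SCTR siRNA. Among the brightest 1% of probes, 474 on each array, 56 were member probes in the control and 36 after SCTR siRNA.

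**Figure D1:**
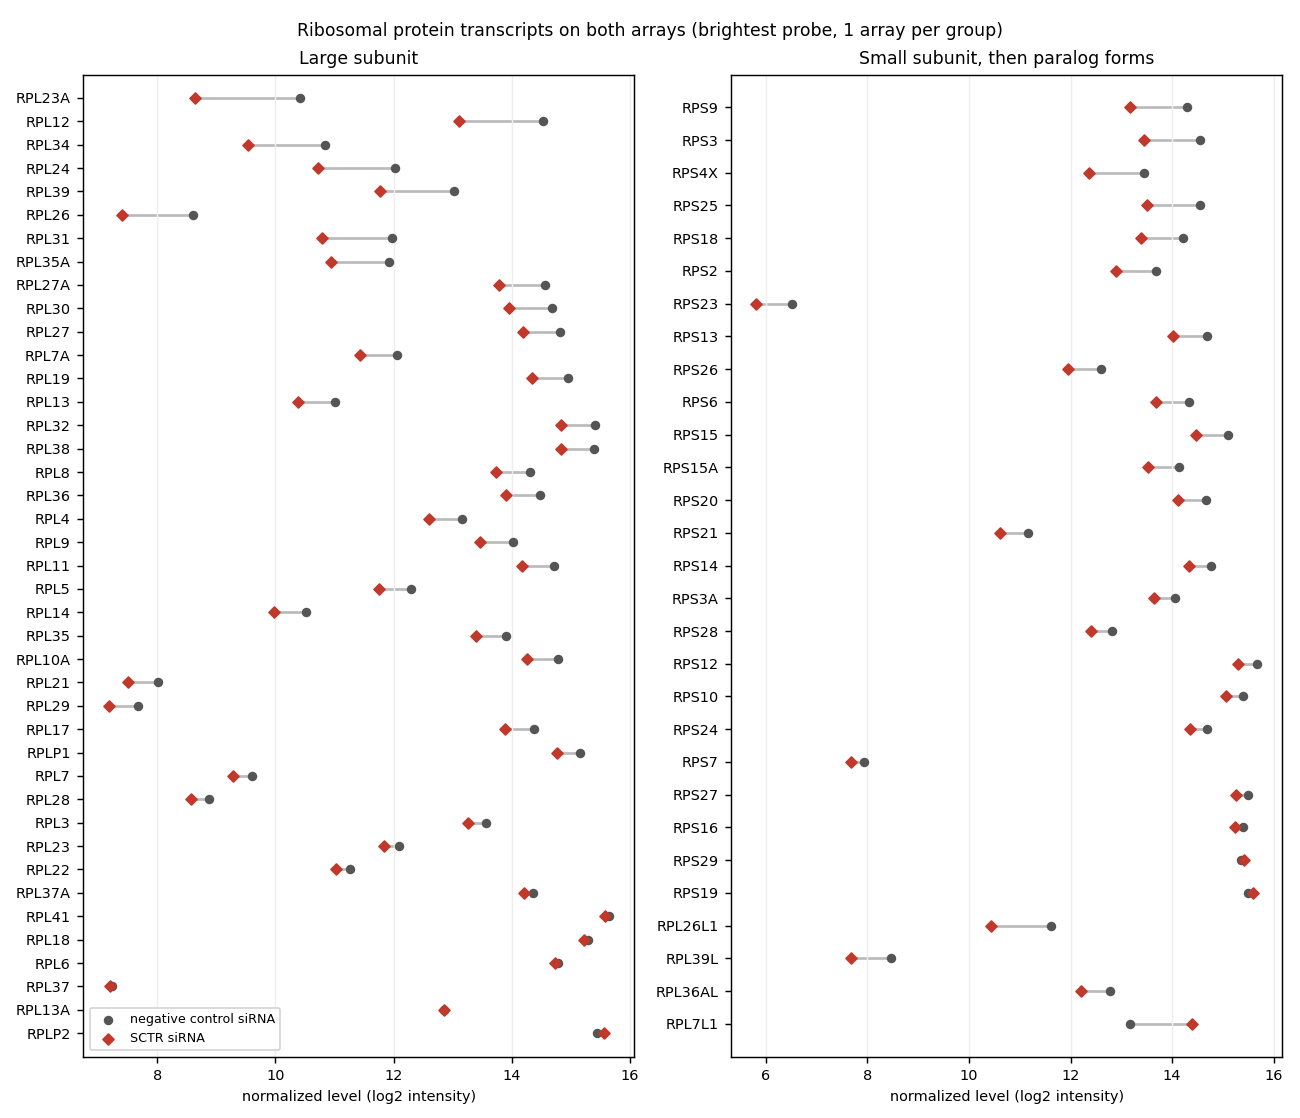
Normalized level (log2 intensity) of 70 of the 71 ribosomal protein genes on the negative control siRNA array (grey circles) and the SCTR siRNA array (red diamonds), 1 array per group and no error bars, with the large subunit on the left and the small subunit and paralog forms on the right; RPS4Y1, whose only probe was close to the detection limit, is not drawn. In most rows the red diamond lies left of the grey circle; RPL7L1 has the opposite order by 1.22, and the small positive differences of RPLP2, RPS19 and RPS29 turn negative under median or 75th percentile scaling.

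In the large subunit the median difference was -0.55, with 40 of 41 genes below 0, 14 lower by 1.5-fold or more and 0 higher by as much. Over all named genes 54.5% were below 0, 23.3% that much lower and 20.7% that much higher. The lowest value was that of RPL23A, a protein at the exit of the peptide tunnel that touches the signal recognition particle. Its probe read 1441 intensity units in the control and 499.6 after SCTR siRNA, levels of 10.41 and 8.64 and a difference of -1.77. RPL12, described with the stalk, came next. RPL34 was the third lowest, with 1906 and 842 units and a difference of -1.31, and its second probe gave -1.34. RPL24, which forms a bridge to the small subunit, read 4230.0 and 1809.9 units, a difference of -1.30.

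The list of proteins that line the tunnel where the new chain leaves the large subunit had 9 of 9 genes measured, with a median of -0.62, all 9 below 0 and 5 at least 1.5-fold lower. Among all members 28 of 71 were that much lower, and among all named genes 23.3%, with 54.5% below 0. Besides RPL23A these 5 were RPL39, RPL26, RPL31 and RPL19. RPL39, a very small protein of the tunnel wall, read 8446 units in the control and 3629 after SCTR siRNA, a difference of -1.25. RPL26 sits at the tunnel exit and read 474 and 270.5 units, a difference of -1.20. RPL31, its neighbour at the exit rim, read 4098 and 1879.8 units, also a difference of -1.20. RPL19 was at -0.62, RPL4 at -0.56, RPL35 at -0.52, RPL17 at -0.49 and RPL22 at -0.23. The tunnel list thus ran from -1.77 to -0.23.

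The stalk recruits and activates the elongation factors, and 3 of its 4 listed genes were measured. RPL12, at the base of the stalk, read 25385 units in the control and 8948 after SCTR siRNA, levels of 14.54 and 13.11 and a difference of -1.42. Its second probe gave -1.58. The stalk proteins themselves differed from it in value. RPLP1 had 38478 and 25879 units and a difference of -0.39 by its brightest probe, with -0.80 and -0.98 by its other probes. RPLP2 had 46254 and 47316 units and a difference of 0.11, which turned to -0.05 under median scaling and -0.16 under 75th percentile scaling. By the brightest probe the stalk genes were thus unequal, with RPL12 alone past 1.5-fold, while RPLP1 also passed it by its other probes. The highest intensity of any probe was 55560 in the control and 56250 after SCTR siRNA. Whether signals as bright as that of RPLP2 are compressed was not tested.

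RPL5 and RPL11 form a particle with the smallest ribosomal RNA, which is built into the large subunit and otherwise binds the ubiquitin ligase MDM2. RPL5 read 5096 units in the control and 3599.8 after SCTR siRNA, a difference of -0.53. RPL11 read 28833 and 17570.4 units, a difference of -0.55, and its second probe gave -0.56. Both genes were close to the median of all members and neither was past 1.5-fold.

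The large subunit genes at the upper end of the range were near 0. RPL13A, known also for a role in silencing translation outside the ribosome, read 7615 units in the control and 7365 after SCTR siRNA, a difference of -0.02. RPL37 had a dim probe with 235 and 247.5 units and a difference of -0.04, which became 0.04 under median scaling. With RPLP2 these were the 3 highest values of the subunit.

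In the small subunit the median difference was -0.56, with 24 of 26 genes below 0, 12 lower by 1.5-fold or more and 0 higher by as much. Over all named genes 54.5% were below 0, 23.3% that much lower and 20.7% that much higher. RPS4Y1, whose only probe was close to the detection limit, is counted among the 24 genes below 0 and the 67 of all members. Its raw intensities lay 1.01-fold apart, so it carries next to no difference before processing. Whether that probe reads this gene in these cells was not tested. The subunits thus had nearly the same median, and each shifted more with the processing than the medians lay apart. RPS9, which takes part in decoding accuracy, read 21683 units in the control and 9319 after SCTR siRNA, levels of 14.30 and 13.16 and a difference of -1.14. Its second probe gave -1.19. RPS3, which lies where messenger RNA enters the ribosome, read 25549 and 11221 units, a difference of -1.09. RPS4X, the X-linked form of RPS4, read 11276 and 5338 units, a difference of -1.08, and -1.23 by its second probe. RPS25, which viral internal entry sites need, read 25669 and 11555 units, a difference of -1.05. RPS18 at -0.82 and RPS2 at -0.79 came next.

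The 3 highest small subunit genes were RPS19, RPS29 and RPS16. RPS19, the gene most often mutated in Diamond-Blackfan anemia, read 47369 units in the control and 48972 after SCTR siRNA, a difference of 0.10 that turned to -0.03 under median scaling and -0.14 under 75th percentile scaling. RPS16 read 44712 and 36559 units, a difference of -0.16. RPS29 had a difference of 0.06 by its brightest probe, with 44060 and 41986 units, while its other probes gave -0.45, -0.40 and -1.27. The probe at -0.45 was the brighter one in the control, with 48721.5 units there. The sign of RPS29 thus depended on the probe and on the scaling, with -0.15 under median scaling and -0.26 under 75th percentile scaling. Whether signals as bright as those of RPS19, RPS16 and the brightest RPS29 probe are compressed was not tested.

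The head of the small subunit holds RPS3, RPS18, RPS25, RPS19, RPS29 and RPS16, and so spans nearly the whole range of the subunit. Of 14 listed head proteins 11 were measured, with a median of -0.42, 9 below 0 and 4 at least 1.5-fold lower. The other 15 genes of the subunit had a median of -0.60, with 15 below 0 and 8 at least 1.5-fold lower. Over all named genes 54.5% were below 0 and 23.3% at least 1.5-fold lower. RPS23, a protein of the decoding centre, was detected on the control array only, with 178 units there and 152 on the other array. These raw intensities lay 1.17-fold apart. On the background-corrected scale, set against the dimmest detected probe of that other array, the level was 1.53-fold lower after SCTR siRNA, while uncorrected values gave a log2 difference of -0.31, the authors' deposited table -0.29 and a correction with an offset of 50 -0.48. In these 3 settings RPS23 is not past 1.5-fold.

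Diamond-Blackfan anemia is a failure of red cell formation caused by the loss of 1 copy of a ribosomal protein gene, and 17 of 19 listed disease genes were measured. Their median was -0.52, with 15 below 0 and 6 at least 1.5-fold lower, and the 50 other members outside the paralog forms had a median of -0.56, with 49 below 0 and 20 at least 1.5-fold lower. The 6 are 35.3% of the disease genes measured, against 23.3% of all named genes, of which 54.5% were below 0. RPL26, RPL31, RPL35A, RPS26, RPL27 and RPS15A were the 6 past 1.5-fold, with RPL35A at -0.99, RPS26 at -0.64, RPL27 at -0.63 and RPS15A at -0.60. RPS19 and RPS29 were the 2 above 0, and both turned negative under median and 75th percentile scaling.

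The 4 paralog forms did not share 1 direction. RPL7L1, whose product takes part in the assembly of the large subunit, was the 1 member at least 1.5-fold higher on the SCTR siRNA array. Its brightest probe read 9323 units in the control and 20080.0 after SCTR siRNA, levels of 13.18 and 14.40 and a difference of 1.22. Its second, dimmer probe read 769 and 1057 units, a difference of 0.46, which is the same direction but under 1.5-fold. RPL7, the core protein it resembles, was at -0.31, so the founder lay 1.53 log2 units below its paralog.

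The other paralog forms were lower on the SCTR siRNA array, and so were the founders RPL26 and RPL39. RPL26L1, nearly identical to RPL26 in its protein, read 3158 units in the control and 1498 after SCTR siRNA, a difference of -1.17 beside -1.20 for RPL26, and -1.10 by its second probe. RPL39L, a form of RPL39 known from testis and cancer cells, read 438 and 307 units, a difference of -0.78 beside -1.25 for RPL39. RPL36AL read 7203 and 4818 units, a difference of -0.58 that lies just inside the 1.5-fold limit, and -0.65 by its second probe. Its founder RPL36A carries no name in the processed table and was not analysed here.

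**Figure D2:**
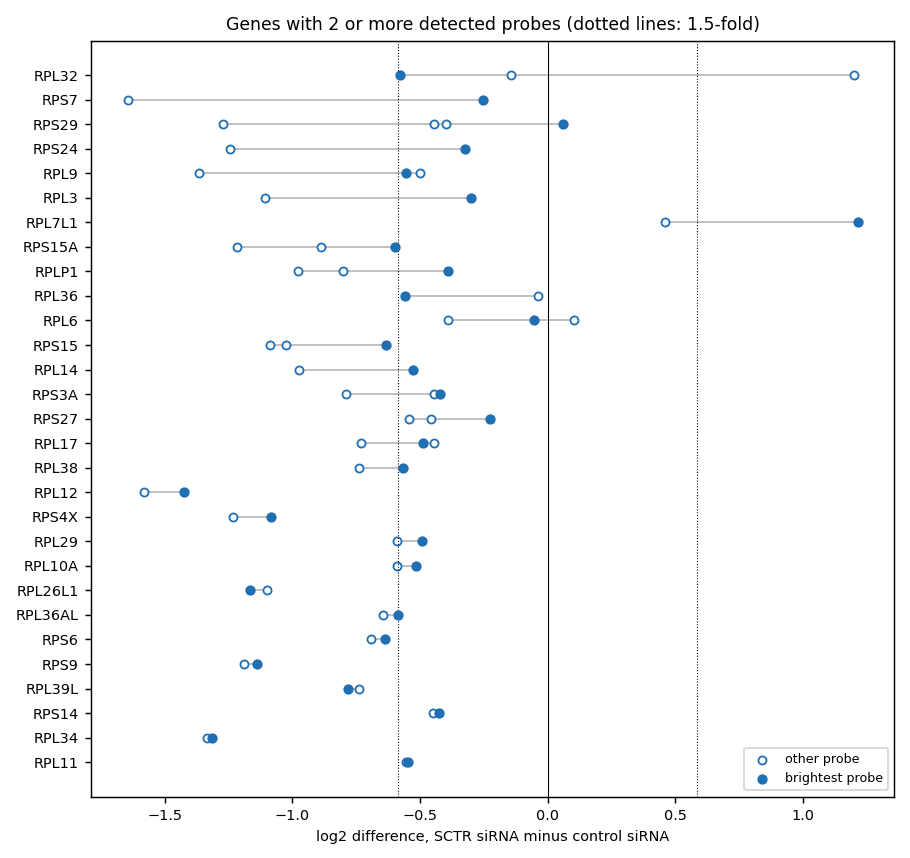
Log2 difference (SCTR siRNA minus negative control siRNA, 1 array each) of every detected probe of the 29 genes with 2 or more probes, the brightest probe filled and the others open, with dotted lines at 1.5-fold. Most genes have their probes close together, while RPL32, RPS29 and RPL6 have probes on both sides of 0.

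Of the 71 genes 29 had 2 or more detected probes, and these allow the value of a gene to be read more than once on the same arrays. The median distance between the highest and the lowest probe of a gene was 0.32 log2 units. Probes of RPL11 lay 0.01 apart, those of RPL34 0.02 and those of RPS9 0.05. More than 1.5-fold apart were the probes of 9 genes, and in RPL32, RPS29 and RPL6 they differed in sign. Probe sequences were not used here, so which transcript forms a probe reads, and whether it also binds a close copy of the gene, was not tested.

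RPL32 had the widest distance. Its brightest probe read 45101 units in the control and 27401 after SCTR siRNA, a difference of -0.58. A dim probe was detected on the SCTR siRNA array only, with 146 and 231 units, which is 1.59-fold higher there in raw intensity and 1.97-fold higher on the background-corrected scale against the dimmest detected probe of the control. The remaining dim probe was at -0.14. The mean of its probes was 0.16, so the sign of RPL32 rests on the choice of the brightest probe. RPS7 was at -0.25 by its brightest probe, and its other probe, detected on the control array only with 228 and 139.8 units, was 1.63-fold lower after SCTR siRNA in raw intensity and 2.40-fold lower on the background-corrected scale against the dimmest detected probe of that array. RPL6 had probes at -0.05, -0.39 and 0.10. Such distances at dim probes show how far 1 probe can be from the next on 1 pair of arrays.

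Of the other genes with wide distances, both probes of RPL7L1 were above 0, as given above, and the rest had every probe below 0. RPL3, which reaches from the surface to the peptidyl transferase centre, was at -0.30 with 12351 and 9924 units and at -1.11 with 13503 and 6115 units. RPS24 was at -0.32 and -1.24, RPS15A at -0.60, -0.89 and -1.22, and RPL9 at -0.56, -0.50 and -1.36, the brightest probe first in each. Over all 111 member probes the median was -0.57, with 104 below 0, 53 lower by 1.5-fold or more and 2 higher by as much. Among all 14949 detected probes with processed values, 8128 (54.4%) were below 0, 3543 (23.7%) that much lower and 3068 that much higher. The 42 genes with 1 probe had a median of -0.56 and the 29 with more had -0.55.

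**Figure D3:**
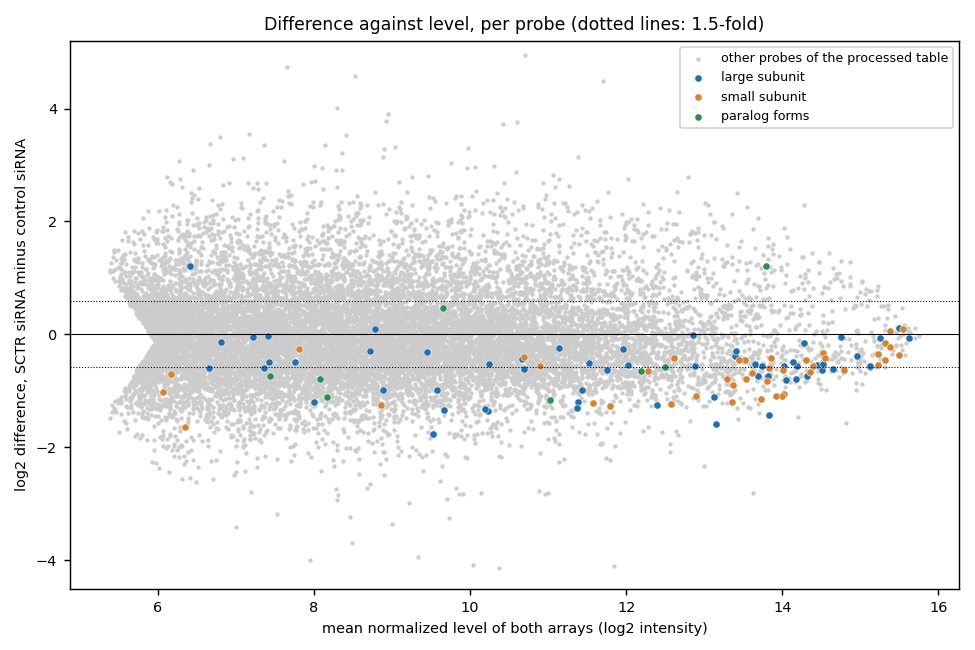
Log2 difference (SCTR siRNA minus negative control siRNA) against the mean normalized level of both arrays (log2 intensity), 1 point per detected probe of the processed table, with member probes coloured by subunit and dotted lines at 1.5-fold. The probe of RPS4Y1 is not drawn, and pseudogene probes are drawn as other probes. Member points lie mostly below 0 at every level, 32 of 35 at levels of 14 and over, while the other probes spread to both sides.

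Ribosomal protein probes are bright, so their differences were also read beside other probes of like level, without the probes named as ribosomal protein pseudogenes. At a mean level of 14 and over, 35 member probes had a median of -0.52 and the 257 other probes -0.10. From 12 to 14 the medians were -0.69 for 33 member probes and -0.10 for 1118 others. From 10 to 12 they were -0.62 for 17 member probes and -0.09 for 2941 others, and from 8 to 10 they were -0.98 for 12 member probes and -0.08 for 4563 others. Below 8 the 14 member probes had -0.49 and the 5944 others -0.06. Under median scaling, which does not force the arrays to 1 shape, the brightest bin shifted as a whole, to -0.74 for member probes and -0.34 for the others.

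The count of genes past the limit moved with the scaling. The number of members at least 1.5-fold lower was 28 with quantile normalization, 45 with median scaling and 50 with 75th percentile scaling, while the share of all named genes was 23.3%, 23.8% and 29.5%. Scaling to the 75th percentile moved the median of all named genes from -0.08 to -0.20. With quantile normalization 2201 of all named genes passed the 1.5-fold limit downwards and 1955 upwards, and with 75th percentile scaling these were 2785 and 1632. Counted relative to the median of all named genes, 19 members were at least 1.5-fold lower with quantile normalization and 35 with either of the scalings. The share of all named genes counted in that way is not given here. These re-centred counts therefore have no background beside them, and the shares above do not apply to them.

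**Figure D4:**
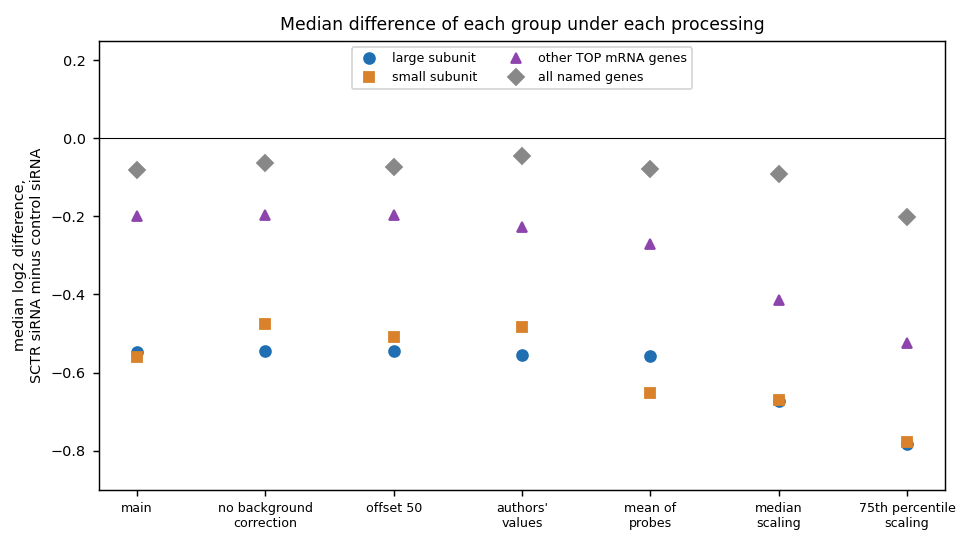
Median log2 difference (SCTR siRNA minus negative control siRNA, 1 array each) of large subunit genes, small subunit genes, other TOP mRNA genes and all named genes under 7 ways of processing. The subunit medians lie between -0.48 and -0.78 in these settings, below the median of all named genes in each.

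The other genes listed as carrying TOP tracts, mostly translation factors, had a median nearer 0 by the brightest probe. Of 20 listed genes 17 were measured, with a median of -0.20, 13 below 0, 3 at least 1.5-fold lower and 0 higher. The 3 lower genes are 17.6% of those measured, against 23.3% of all named genes, of which 54.5% were below 0. EEF1G, a subunit of the elongation factor that reloads EEF1A1, read 3921 units in the control and 2242 after SCTR siRNA, a difference of -0.86. EIF3H, a subunit of an initiation factor, read 6493 and 3683 units, a difference of -0.84. FAU, which encodes a small subunit protein fused to a ubiquitin-like domain and lies outside the naming rule, read 17556 and 10205 units, a difference of -0.73. EIF3F at -0.52, EEF1B2 at -0.41 and HNRNPA1 at 0.40 were the next in size. The median of the list was -0.41 with median scaling and -0.52 with 75th percentile scaling.

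Annotated starts of RefSeq were matched for 60 of the 71 members, and 11 were not matched. A TOP tract was taken as a C at the start base followed by at least 4 bases that are C or T, searched on the strand of the gene at that 1 position. It was found in 40 of the 60 members (66.7%), in 0 of 3 matched paralog forms and in 3.94% of the 34874 other annotated starts. The 40 members with the tract, the dim RPS4Y1 among them, had a median of -0.53, with 16 at least 1.5-fold lower. The 20 without it had a median of -0.56, with 7 lower. Over all named genes 23.3% were that much lower. Among other named genes the median was -0.16 for 405 with the tract and -0.08 for 7268 without it. RPL12 and RPLP2, printed above, both have the tract and lay 1.42 log2 units below and 0.11 above 0, the latter with its sign lost under median and 75th percentile scaling. A match is a description of these letters at the annotated base and not of the start used in these cells.

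Probes named as ribosomal protein pseudogenes, which the rule left out, were 15 with 13 symbols. Their median difference was -0.80, with 13 below 0 and 9 at least 1.5-fold lower. Over all 14949 detected probes with processed values the median was -0.08, with 54.4% below 0 and 23.7% at least 1.5-fold lower. RPL23AP87 read 4304 units in the control and 1995.6 after SCTR siRNA, a difference of -1.18 beside -1.77 for RPL23A. The 2 probes above 0 were also named as copies of RPL23A, RPL23AP7 at 0.01 and RPL23AP53 at 0.27. The other probe of RPL23AP7 was at -1.22. The probes of RPL13AP5 read 25135 and 12872 units and 21228 and 11362 units, differences of -0.84 and -0.80 beside -0.02 for RPL13A. RPL13AP6 was at -0.98, RPL13AP20 at -0.48 and RPL13AP3 at -0.38. These symbols were chosen after their values were seen. Copies of a ribosomal protein gene can be so alike that a probe reads parent and pseudogene together, so values of RPL23A and RPL13A are uncertain to that extent.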

How the data were processed

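Total RNA of MCF-10A cells was cleaned, treated with DNase, checked on a Bioanalyser and turned into biotin-labelled cRNA, per the labels' protocols, with 1 array in each group and 2 in all. The deposited non-normalized table gives an intensity and a detection p-value for each of 47323 probes, and GenomeStudio 2011.1 is named for the series in the submitters' processing notes; 7 probes had no signal and were left out. The authors' deposited processed table holds log2 values of 16871 probes, which correlated with the log2 intensities of the same array with r = 1.00 across probes and had a median of 8.57 in both columns; the sources used here do not state how they were made. It sets which probes carry a symbol: 13060 had 1, 3 had several and 3808 none, and 13054 gene IDs matched RefSeq (GRCh38.p14), which changed 0 symbols.

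Background was removed in limma 3.58.1 under R 4.3.3 by its normal-exponential method (offset 16, negative controls inferred through detection p-values), followed by quantile normalization and log2. Each gene was represented by its brightest probe, by the mean log2 level of both arrays, among those detected (p under 0.01) on either array. With 1 array per group no test was made, and called means at least 1.5-fold or 2-fold apart. A gene detected on 1 array was set against the higher of its own level and the lowest detected level on the other array (6.04 on the control array, 5.91 on the SCTR siRNA array), and this fold depends on the background correction, so the raw fold is given beside it. Alternatives covered background correction, scaling, the authors' values, the detection rule, the mean of probes and bright probes.

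Members and lists were chosen with earlier results of these data known. Named genes were each paralog form, the 6 lowest and 3 highest of each subunit, genes whose probes differed in sign or by over 0.58, members of the role lists and 6 other TOP genes. In a simulation of this comparison over 47316 probes, sets of 50 probes made with differences of -2, -1, 1 and 2 came back with medians of -1.96, -1.01, 0.99 and 1.98. The simulation had little noise and moved as many probes up as down. It therefore does not show how the processing handles noise between cultures or a mostly downward shift of bright probes.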

Additional observations from a re-analysis of the deposited data

How the results depend on the processing

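The median of all ribosomal protein genes stayed below 0 under all 10 alternatives, between -0.78 and -0.54, with the large subunit between -0.78 and -0.51 and the small subunit between -0.78 and -0.48. For all members, large and small subunit in that order, it was -0.54, -0.54 and -0.48 without background correction, -0.67, -0.67 and -0.67 with median scaling, -0.78, -0.78 and -0.78 with 75th percentile scaling, and -0.62, -0.56 and -0.65 with the mean of all probes of a gene. For all members and the small subunit it was -0.55 and -0.51 with an offset of 50, -0.55 and -0.48 with the authors' values, and -0.55 and -0.55 with detection on both arrays. Without member probes in the top 1% of intensities, which leaves out 57 probes and leaves 43 genes, it was -0.51 for the large and -0.70 for the small subunit. With only the members with 1 detected probe, an alternative chosen after seeing the data, it was -0.56 and -0.57. The count at least 1.5-fold lower was 45 with median scaling and 50 with 75th percentile scaling, and between 19 and 36 otherwise. These counts are out of 42 to 71 genes measured, and the 19 are 45.2% of the 42 members with 1 detected probe. Across the settings 15.7% to 29.5% of all named genes were that much lower. The count at least 1.5-fold higher was 0 in the last 2 settings, which leave out a probe of RPL7L1 or the gene. Signs turned for RPL37 (0.045), RPS29 (-0.15), RPS19 (-0.030) and RPLP2 (-0.046) with median scaling, for RPS29 (-0.26), RPS19 (-0.14) and RPLP2 (-0.16) with 75th percentile scaling, for RPL32 (0.16) and RPS29 (-0.51) with the mean of probes, and for RPL6 (0.10) and RPS29 (-1.27) without the top 1%; except where other probes enter by construction, the cause was not tested. Detection p under 0.05 moved no median or count of members. No paired analysis was possible because each group has 1 array. Brightness limits the values at both ends: RPS23 lies at the detection limit, and quantile normalization fixes the shape of the brightest signals, where many members lie. No spread between cultures can be had, and dim probes such as those of RPL37, RPL26 and RPL39L moved with the background correction.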
